A study of Mus musculus with 2 samples.

Results

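Among the leukocytes of the inflamed mouse brain, a small group of cells carried transcripts of Arg1 (arginase 1, which splits arginine into ornithine and urea) or Chil3 (Ym1, a secreted chitinase-like protein) together with monocyte genes. They were chosen in the CD45-positive library from barcodes with at least 1000 UMIs (transcript molecules counted by their molecular barcodes) and at most 20% mitochondrial UMIs. A cell had to hold at least 3 UMIs of Arg1 and Chil3 together and at least 1 of Lyz2 (lysozyme). It also had to hold fewer than 50 UMIs per 10000 of the complement genes C1qa, C1qb and C1qc, fewer than 10 UMIs of S100a8 and S100a9, and no more than 1 UMI of Cd3d, Cd3e and Cd3g. These limits left 111 cells of the 7768 barcodes past the UMI and mitochondrial limits, a share of 1.43% (exact binomial 95% interval 1.18 to 1.72%), and of 23186 barcodes in the whole series. The cells were thus selected on the measured levels of these 11 genes, whose values below are a description.

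Ly6C-high monocytes leave the blood through the chemokine receptor Ccr2 and turn into macrophages or dendritic cells in inflamed tissue. Arginase 1 and Ym1 are read in mouse macrophages as products of interleukin-4 and interleukin-13 signalling through STAT6, but both genes are also switched on by other signals, and Chil3 is high in neutrophil and monocyte precursors. In neuromyelitis optica spectrum disorder, antibodies to the astrocyte water channel aquaporin-4 bring complement and blood leukocytes to the lesion.

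The cells came from brains of C57BL mice aged 8 to 13 weeks in a model of that disease, 24 h in. Brain cells were separated by CD45, the surface protein of leukocytes, into a CD45-positive and a CD45-negative library, with 1 library each. The sources used here do not state how the model was made, how many mice were pooled or how CD45 was sorted, and no control library was analysed here. Every value therefore describes 1 library at 1 time point. No test over samples was possible and no p-value is given. Intervals are exact 95% intervals and cover counting error only, not the spread between mice or between cells.

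The CD45-positive library held 8662 barcodes and 76182401 UMIs, and the 111 cells held 1091205 of them. A cell had between 1108 and 28521 UMIs (median 9513) and a median of 2632 detected genes. Of these cells, 0 were called doublets by Scrublet, which called 177 of the 8662 barcodes (2.04%), and 1 carried a barcode that also occurs in the CD45-negative library, out of 27 shared barcodes in all. Levels are given as CPM: the UMIs of a gene were summed over a group of cells and scaled to the group's total of UMIs, so that groups of different size can be compared.

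Arg1 and Chil3 were shared out unevenly among the cells. Arg1 (chromosome 10, 24915221 to 24927484, minus strand, GRCm38) had between 0 and 129 UMIs per cell with a median of 3, and Chil3 (chromosome 3, 106147554 to 106167564, minus strand) had between 0 and 221 with a median of 12. Summed, they stood at 1453 and 2944 CPM. Both genes were seen in 60 cells, only Arg1 in 15 and only Chil3 in 36. The 10 cells with most Arg1 held 47.6% of its UMIs, and the 10 cells with most Chil3 held 42.9%. Across the 111 cells, which share 1 library and differ in depth, the 2 levels per 10000 UMIs had a Pearson r of -0.13 and a Spearman rho of -0.27. The rule left out cells with fewer than 3 UMIs of both genes together. Leaving out cells low in both genes by itself pushes such values down, so their sign is no finding. After each cell was thinned to 1000 UMIs, 29 cells kept both genes, 24 only Arg1, 42 only Chil3 and 16 neither. T cells, which should lack both genes, held a UMI of Arg1 in 2.96% and of Chil3 in 3.28% of cells, at a median of 6178 UMIs against 9513 in the Arg1 or Chil3 cells.

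**Figure D1:**
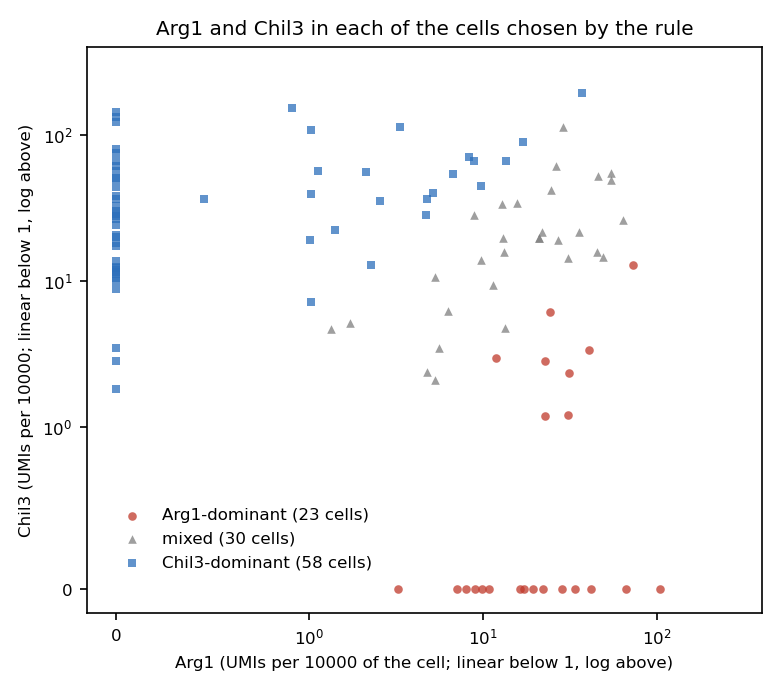
Each point is 1 of the 111 cells, with Arg1 on the x axis and Chil3 on the y axis in UMIs per 10000 UMIs of the cell, on axes that are linear below 1 and logarithmic above. Colour and shape give the share of Arg1 in the sum of both genes: 23 Arg1-dominant cells (at least 80% Arg1), 30 mixed cells and 58 Chil3-dominant cells (at most 20% Arg1), with 15 cells on the Arg1 axis and 36 on the Chil3 axis.

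Cells lay on both sides of each limit of the rule. Exactly 3 UMIs of Arg1 and Chil3 were held by 4 cells, and among barcodes that met every other limit 20 held 2 UMIs, 35 held 1 and 345 held 0. The C1q limit alone kept out 130 barcodes, against 13 for the Cd3 limit and 11 for the S100 limit. Those 130 barcodes were deeper (median 20020 UMIs, up to 112022), held 2833 of the library's 5669 Arg1 UMIs and 2487 of its 8080 Chil3 UMIs, and carried P2ry12, a receptor of microglia, at 341 CPM. The 111 cells held 1586 Arg1 UMIs and 3212 Chil3 UMIs and had 37.6 CPM of P2ry12. Scrublet called 0 of the 130 barcodes doublets. The 16 cells just inside the limit (30 to 50 C1q UMIs per 10000) had 72.5 CPM of P2ry12 and 2822 CPM of Arg1, and the 15 barcodes just outside it (50 to 75) had 196 CPM of P2ry12 and 1198 CPM of Arg1. Whether barcodes above the limit are C1q-positive macrophages or hold the RNA of a microglial cell beside a monocyte was not tested.

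Chil3 has a near copy, Chil4 (Ym2), on the same chromosome, and both were aligned because a 3′ assay could split reads between them. Their longest GENCODE M21 transcripts were 94.4% identical over 1538 aligned bases and their last 300 bases 90.0% identical. Chil4 had 0 UMIs in the whole library, against 8080 of Chil3, and reads from one copy counted for the other cannot be told apart in these counts. The windows before their start sites, from 250 to 31 bases upstream (RefSeq table, GRCm38.p6), were 91.1% identical over 191 aligned bases. They are shown to set the copies side by side, with those of Saa3 and Cxcl2, a pair of genes far higher in the Arg1 or Chil3 cells than in other Ccr2 cells. Capitals mark matches to TTGCNNAA, a form of the C/EBP motif, or to GGANTTTCC, a form of the NF-kB motif, on either strand. The windows lie at chr3:106167595-106167814 (Chil3), chr3:106219510-106219729 (Chil4), chr7:46715707-46715926 (Saa3), all on the minus strand, and chr5:90903649-90903868 (Cxcl2, plus strand), written 5′ to 3′ along the gene.
Chil3: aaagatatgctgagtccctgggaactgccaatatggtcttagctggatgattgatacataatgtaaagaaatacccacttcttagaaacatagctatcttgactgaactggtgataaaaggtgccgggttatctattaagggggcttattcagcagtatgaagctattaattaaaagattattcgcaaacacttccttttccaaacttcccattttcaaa
Chil4: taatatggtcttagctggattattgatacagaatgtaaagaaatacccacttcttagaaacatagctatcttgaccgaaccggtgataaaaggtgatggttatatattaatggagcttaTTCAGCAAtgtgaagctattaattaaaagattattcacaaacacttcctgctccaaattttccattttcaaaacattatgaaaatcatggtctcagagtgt
Saa3: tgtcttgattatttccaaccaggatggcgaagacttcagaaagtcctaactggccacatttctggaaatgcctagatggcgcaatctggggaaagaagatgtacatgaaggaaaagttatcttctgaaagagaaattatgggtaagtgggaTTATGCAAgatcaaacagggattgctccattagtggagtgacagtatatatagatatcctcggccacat
Cxcl2: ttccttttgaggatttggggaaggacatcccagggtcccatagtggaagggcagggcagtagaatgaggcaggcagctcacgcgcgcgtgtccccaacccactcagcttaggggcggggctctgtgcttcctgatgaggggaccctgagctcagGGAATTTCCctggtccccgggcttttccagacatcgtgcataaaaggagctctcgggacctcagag
The C/EBP letters occur once in the Chil4 and once in the Saa3 window and in 8.78% of 32851 promoter windows of the same length. The NF-kB letters occur once in the Cxcl2 window and in 0.962% of all windows. The letters TGANTCA (AP-1) and ACGTG (hypoxia response element), found in 6.12% and 14.4% of all windows, occur in none of the windows shown. The Chil3 window holds a match to none of the letters searched. Such matches describe the letters in these windows and say nothing about binding of a factor.

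Set against microglia, the markers go with the monocyte name as far as they reach. Ccr2 was seen in 101 of the 111 cells (91.0%; 46.1% of T cells) with 0 to 39 UMIs per cell and a median of 6. Its level was 878 CPM, against 21.8 CPM in microglia (2627 cells of the same library with at least 50 C1q UMIs per 10000, at least 2 UMIs of P2ry12 and Tmem119, none of Arg1 and Chil3 and the same S100 and Cd3 limits). Ly6c2, the antigen that defines inflammatory monocytes, stood at 1085 CPM, against 20.01 CPM in microglia, and Plac8, a small protein of monocytes and other leukocytes, at 2094 CPM, against 61.8 CPM. T cells also held Ly6c2 at 1266 CPM and Plac8 at 564 CPM, so neither gene belongs to monocytes alone. Plbd1, a phospholipase B-like protein, was a weak marker here: 205 CPM in the Arg1 or Chil3 cells, against 13.6 CPM in microglia but 758 CPM in dendritic cells of the same library (165 cells with Flt3 and at least 20 MHC class II UMIs per 10000). Descent from monocytes itself is not measured by such data.

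Markers of most other cells were low or absent. Macrophage markers were the exception: the list of 15 summed to 11607 CPM, against 10468 CPM in microglia. The list of 12 microglia genes summed to 1141 CPM, against 14257 CPM in microglia, and per cell it ran from 0 to 7106 CPM with a median of 839. Of 13 neutrophil genes, 7 had 0 UMIs, among them the granule genes Ngp and Ltf and the surface marker Ly6g. The other 6 summed to 160 CPM, and 50 cells held no UMI of the list. That sum was above the 99.1 CPM of the list in microglia, 121 CPM in the Ccr2 cells compared below and 13.1 CPM in T cells. It was far below the 23777 CPM of the neutrophils compared below, which were chosen in part by genes of this list. All 9 genes of the eosinophil, basophil and mast cell list were at 0 UMIs, which at a floor of 3 UMIs allows up to 2.75 CPM each. The 10 border macrophage genes summed to 937 CPM, against 245 CPM in microglia, with Lyve1 at 0. Pf4 of that list reached 244 CPM in 16 cells, with 50.4% of its UMIs in 1 of them. F13a1, also of that list and named below among the clotting genes, stood higher than Pf4. The oligodendrocyte list summed to 188 CPM and the T cell list to 175 CPM; their part in any result was not tested.

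**Figure D2:**
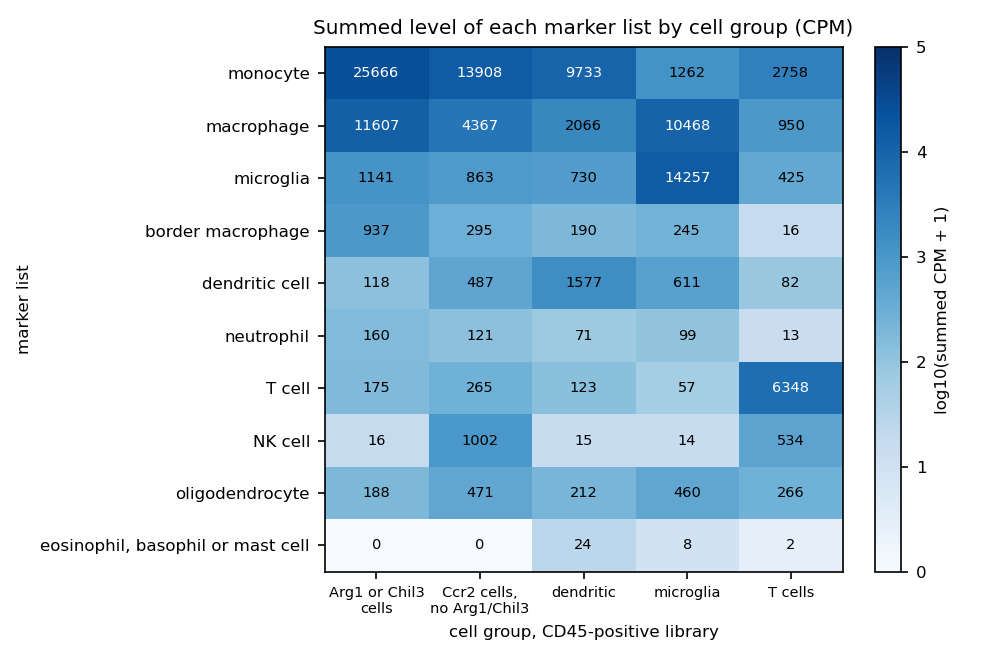
Each cell of the plot gives the summed level of 1 marker list (rows) in 1 group of cells (columns) in CPM, with colour on a log10 scale. The monocyte sum of the Arg1 or Chil3 cells, 25666 CPM, holds 10610 CPM of Lyz2, which the rule required; over 17 of the genes without Lyz2 it was 15023 CPM, against 16106 CPM in the 8 neutrophils, which are not plotted. Their microglia sum of 1141 CPM is far below the 14257 CPM of microglia.

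The nearest comparison was with 138 Ccr2 cells that met every limit of the rule but held 0 UMIs of Arg1 and Chil3, at least 1 of Ccr2 and none of Flt3 (median 7744.5 UMIs). From these Ccr2 cells the Arg1 or Chil3 cells stood apart by chemokines, matrix and clotting proteins, and scavenger and lipid genes. Such genes were not particular to them. The 130 barcodes above the C1q limit held 1878 UMIs of Thbs1 (thrombospondin 1), 335 of Vcan (versican) and 435 of the clotting gene F10, among 3268209 UMIs. The Arg1 or Chil3 cells held 1636, 327 and 519, among 1091205 UMIs. Of 7762 genes with at least 20 UMIs in both groups together, 506 (6.52%) were at least 2-fold higher and 694 (8.94%) at least 2-fold lower in the Arg1 or Chil3 cells, with a median log2 ratio of -0.07 over all of them. With TMM scaling 619 were higher and 580 lower, and with median-of-ratios scaling 572 and 619, so which side held more genes depended on the scaling. Genes of natural killer cells, such as the receptor Klre1 and the protease Gzma (14.7 against 626 CPM), were among the lower ones, and their list summed to 15.6 CPM in the Arg1 or Chil3 cells, against 1002 CPM in the Ccr2 cells. Without cells that held more than 1 UMI of Ncr1, Klrb1c, Prf1, Klre1 and Gzma, 114 Ccr2 cells were left, and 6.42% of genes were at least 2-fold higher and 6.61% at least 2-fold lower. The Ccr2 cells also held more MHC class II RNA. A further version, chosen like the one before after the data had been seen, kept only cells under 20 UMIs per 10000 of the MHC class II genes H2-Aa, H2-Ab1, H2-Eb1 and Cd74, which left 71 Arg1 or Chil3 cells and 34 Ccr2 cells without natural killer transcripts, with medians of 9288 and 3635.5 UMIs.

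Among the lists of gene functions, chemokine ligands had the highest median ratio. Of 17 chemokine genes that could be compared, 13 were at least 2-fold higher and 1 lower, with a median log2 ratio of 2.68, and the median was 1.97 in the version low in MHC class II. Ccl2, the main ligand of Ccr2, was seen in 82 of 111 cells (73.9%; 11.5% of T cells), with 0 to 420 UMIs per cell and a median of 7. It reached 3084 CPM in the Arg1 or Chil3 cells, against 105 CPM in the Ccr2 cells (log2 ratio 4.88, 4.62 to 5.15), and 3547 against 207 CPM in the version low in MHC class II. Ccl7, a further Ccr2 ligand, reached 1170 CPM, against 15.5 CPM (log2 ratio 6.24), in 48 cells (43.2%; 3.59% of T cells). Ligands and receptor were thus high in the same group of cells. Cxcl2, which attracts neutrophils, was at 2449 against 278 CPM (log2 ratio 3.14) and was seen in 53 cells (47.7%; 11.9% of T cells). In the version low in MHC class II it was at 3164 against 970 CPM. Ccl6 and Ccl9, macrophage chemokines of mice, were at 1533 against 250 CPM and 841 against 207 CPM. Ccl5, a chemokine of T and natural killer cells, was the exception at 122 against 757 CPM, and without natural killer cells the Ccr2 cells were at 113 CPM.

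Of 20 genes of matrix, proteases and clotting compared, 14 were at least 2-fold higher and 1 lower, with a median log2 ratio of 1.64, or 0.95 in the version low in MHC class II. Fn1 (fibronectin) was seen in 94 cells (84.7%; 2.77% of T cells), with 0 to 97 UMIs per cell and a median of 8, and stood at 1544 CPM, against 274 CPM in the Ccr2 cells (log2 ratio 2.50, 2.32 to 2.67). In the version low in MHC class II it was at 1695 against 725 CPM (log2 ratio 1.23). Thbs1 (thrombospondin 1) stood at 1499 against 230 CPM (2.71) and was seen in 86 cells (77.5%; 1.89% of T cells). The clotting genes F10 (476 against 144 CPM) and F13a1 (377 against 84.3 CPM) and the matrix protein Ecm1 (363 against 31.0 CPM) were higher as well, though F13a1 was within 2-fold in the version low in MHC class II (465 against 251 CPM). Tgfbi, a matrix protein of monocytes and macrophages, was seen in 108 cells (97.3%; 4.66% of T cells) and stood at 2312 against 839 CPM. Vcan (versican) was at 300 against 102 CPM, but the version low in MHC class II gave 347 against 447 CPM, a log2 ratio of -0.36 whose interval (-0.73 to 0.02) holds 0.

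Of 20 lipid and lysosome genes, 16 were at least 2-fold higher and 0 lower, with a median log2 ratio of 1.62, or 1.38 in the version low in MHC class II. Apoe, the lipid carrier of macrophages, reached 6080 CPM in the Arg1 or Chil3 cells, against 1017 CPM in the Ccr2 cells (log2 ratio 2.58, 2.49 to 2.67), and was seen in 109 of 111 cells (98.2%; 20.5% of T cells). Msr1, a scavenger receptor, was at 484 against 52.5 CPM, and Plin2, which coats lipid droplets, at 796 against 286 CPM. Lgals3 (galectin 3) was at 2975 against 1504 CPM, just under 2-fold (log2 ratio 0.98). Spp1 (osteopontin) was at 929 against 65.4 CPM, in 40 cells (36.0%; 3.72% of T cells), with 18.05% of its UMIs in 1 cell. In the version low in MHC class II it was at 842 against 213 CPM. Saa3, an acute-phase protein of macrophages, was at 828 against 25.8 CPM (log2 ratio 5.00), in 51 cells (45.9%; 10.6% of T cells). Gpnmb, a glycoprotein of lipid-laden macrophages, was at 91.6 against 4.30 CPM, with 25% of its UMIs in 1 cell.

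Of 18 monocyte markers compared with the Ccr2 cells, 6 were at least 2-fold higher and 3 lower, with a median log2 ratio of 0.47. Of 15 macrophage markers, 10 were at least 2-fold higher and 0 lower. Ms4a7, a membrane protein of macrophages, was at 131 against 6.88 CPM and Cd14, the co-receptor for bacterial lipopolysaccharide, at 696 against 136 CPM. Among 28 transcription factors 4 were higher, Cebpb and Fos among them, and 1 lower (Bhlhe40). Cebpb, a C/EBP factor of activated myeloid cells, was at 2307 against 1008 CPM. The complement receptors C5ar1 (351 against 31.0 CPM) and C3ar1 (258 against 32.7 CPM) and the Fc receptors for IgG Fcgr1 (784 against 296 CPM) and Fcgr2b (409 against 92.9 CPM) were higher. In all, 7 of 11 complement genes were higher and 1 lower, and 4 of 8 Fc receptor genes were higher and 1 lower. Hmox1 (haem oxygenase 1) was at 410 against 73.1 CPM, and the ferritin heavy chain Fth1 at 17756 against 7997 CPM.

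Antigen presentation ran the other way. All 9 MHC class II genes compared were at least 2-fold lower, with a median log2 ratio of -1.95: H2-Aa was at 1105 CPM in the Arg1 or Chil3 cells, against 4381 CPM in the Ccr2 cells, and the invariant chain Cd74 at 3214 against 11102 CPM. The dendritic cell list moved with it, 6 of 9 genes lower and 1 higher, with Cd209a at 10.1 against 146 CPM. Its part in the MHC class II difference was not tested. Interferon-stimulated genes depended on the comparator: 2 of 20 were higher and 0 lower with a median log2 ratio of 0.46, but the median was 1.94 in the version low in MHC class II, where Isg15 was at 1585 against 327 CPM and Irf7 at 502 against 104 CPM.

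Genes that accompany Arg1 and Chil3 in interleukin-4-treated mouse macrophages gave no common direction. Retnla had 0 UMIs, like Chil4, and Mrc1 (the mannose receptor) was at 48.6 against 40.4 CPM. Of 10 alternative activation genes compared, 4 were at least 2-fold higher and 3 lower, with a median log2 ratio of 0.53, which ran from -0.49 at a minimum of 1 UMI to 1.59 after thinning to 1000 UMIs. The higher ones were Fn1, Tgm2 (a transglutaminase), Cd300ld and Ccl24, whose 52 UMIs lay in 5 cells with 69.2% in 1. The lower ones, Cd209a, Mgl2 and Clec10a, are lectins that dendritic cells also make. Of 15 genes of interleukin-4 and interleukin-13 signalling, 0 were higher and 3 lower (the shared receptor chain Il2rg and the feedback inhibitors Cish and Socs1), with the receptor chain Il4ra at 153 against 114 CPM and Stat6 at 69.7 against 43.9 CPM. Nos2, the arginine-using enzyme of classically activated macrophages, had 3 UMIs in 3 cells. Of 15 arginine and polyamine genes 3 were higher and 1 lower: Arg2, the mitochondrial arginase, was at 33.9 against 5.16 CPM, while Ass1, which rebuilds arginine from citrulline, was at 213 against 215 CPM and Odc1, which makes polyamines from ornithine, at 47.7 against 40.4 CPM. Among 15 classical activation genes 7 were higher and 1 lower, and Il1b stood at 1367 against 856 CPM.

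**Figure D3:**
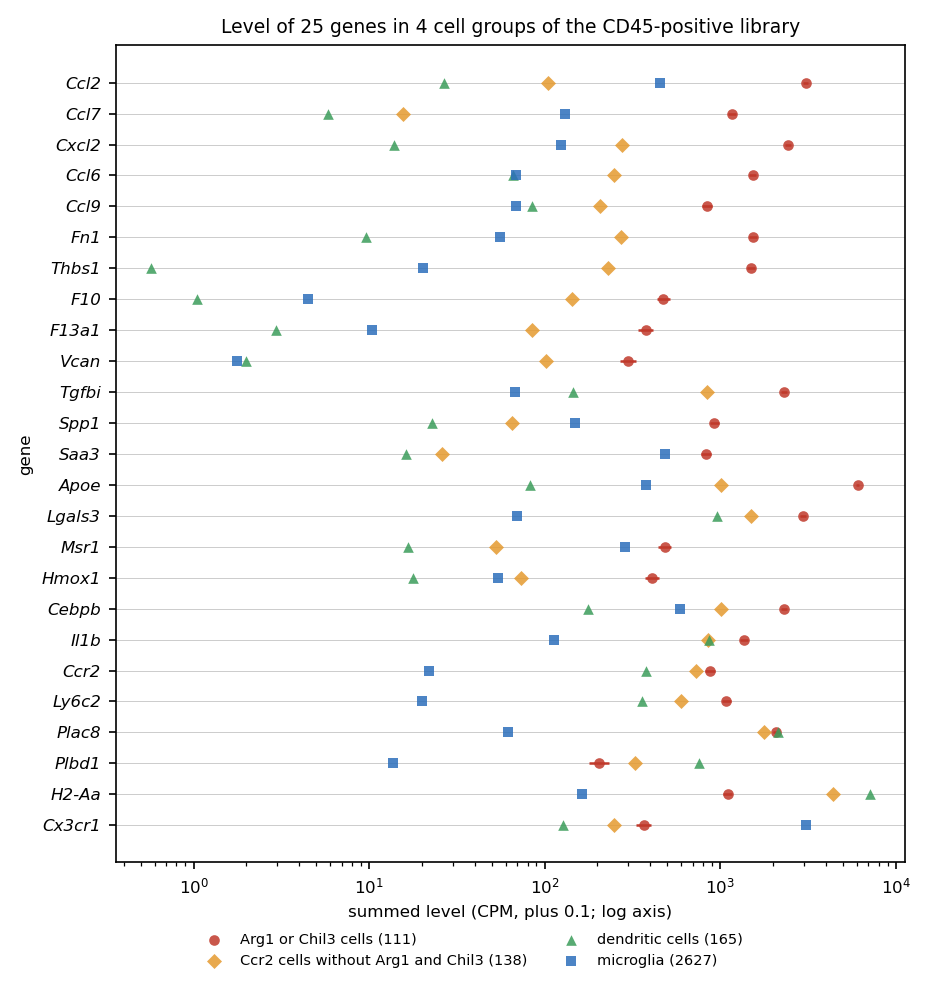
Each row is a gene and each point its summed level in CPM (plus 0.1, log axis) in 1 of 4 groups of cells of the CD45-positive library, with exact Poisson 95% intervals as bars on the Arg1 or Chil3 cells. Ccl2 at 3084 CPM and Apoe at 6080 CPM lie to the right of all other groups shown, while H2-Aa lies between microglia at 163 CPM and the Ccr2 cells at 4381 CPM.

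Against microglia the differences were wider. Of 11570 genes compared, 1363 (11.8%) were at least 2-fold higher and 3254 (28.1%) at least 2-fold lower in the Arg1 or Chil3 cells, with a median log2 ratio of -0.42, against which the next ratios are to be read. With median-of-ratios scaling these counts were 1966 and 2049, and with TMM scaling 1770 and 2356. All 20 monocyte genes compared were at least 2-fold higher (median log2 ratio 4.49), and all 10 microglia genes at least 2-fold lower (median -4.19), P2ry12 and Tmem119 left out because they chose the microglia. Vcan was at 300 against 1.67 CPM, F10 at 476 against 4.39 CPM and Pla2g7, a secreted phospholipase, at 489 against 5.25 CPM, each with a log2 ratio over 6. The interferon-stimulated genes were higher in 19 of 20 (median log2 ratio 3.15), with Ifitm3 at 5139 against 561 CPM, and adhesion and migration genes in 15 of 20 (3.61). Of 19 cell cycle genes, 0 were higher and 14 lower, and Mki67 had 5 UMIs in the 111 cells. Chemokines divided the 2 kinds of cells: Ccl2 (3084 against 454 CPM) and Cxcl2 (2449 against 123 CPM) were higher, and Ccl12, a further Ccr2 ligand of mice, was lower (517 against 4784 CPM). Trem2, a lipid receptor of microglia and macrophages, was lower at 206 against 1028 CPM, and Saa3 differed by less than 2-fold at 828 against 488 CPM. C5ar1 and C3ar1, higher than in the Ccr2 cells, were within 2-fold of microglia (log2 ratios 0.20 and 0.18).

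**Figure D4:**
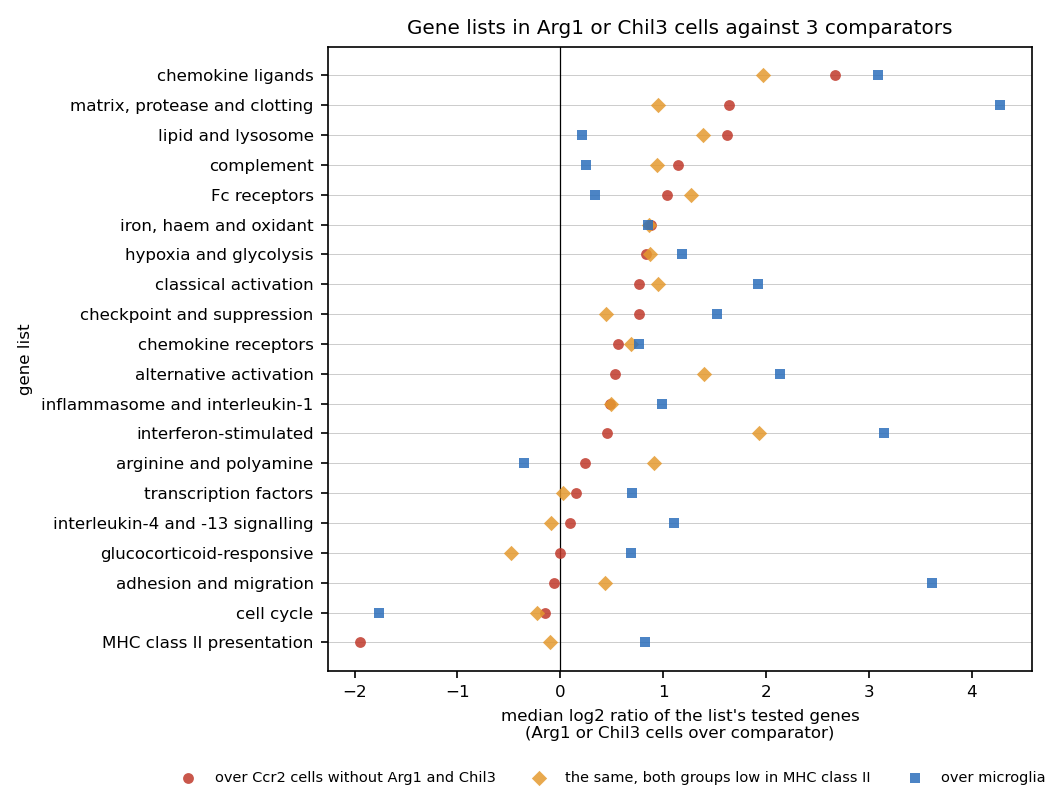
Each row is a gene list and each point the median log2 ratio of its compared genes, Arg1 or Chil3 cells over 1 of 3 comparators: the Ccr2 cells, the Ccr2 cells with both groups limited to low MHC class II, and microglia. The chemokine list has medians of 2.68, 1.97 and 3.09, and the MHC class II list moves to -0.10 in the version low in MHC class II, where these genes were limited by choice.

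Neutrophils gave a thin comparison, since the rule left 8 of them (at least 10 UMIs of S100a8 and S100a9, at least 1 of Csf3r, Retnlg, Mmp9 and Cxcr2, the same Cd3 limit and under 10 C1q UMIs per 10000). Of 4646 genes, 835 (18%) were at least 2-fold higher and 718 (15.5%) at least 2-fold lower in the Arg1 or Chil3 cells, with 1161 and 484 under TMM scaling and 698 and 850 under median-of-ratios scaling. Of 17 monocyte markers compared, 5 were at least 2-fold higher and 7 lower, with a median log2 ratio of 0.02. Camp, Ngp and Ltf, proteins of neutrophil granules, were at 0.916, 0 and 0 CPM, against 10731, 9676 and 1530 CPM in neutrophils, where 1 cell held between 57.7 and 64.9% of the UMIs of each. With the C1q limit raised to 50 per 10000, 45 neutrophils were left, in which Cxcl2 was at 10201 CPM, against 2449 CPM in the Arg1 or Chil3 cells, and Ccl2 at 300 CPM, against 3084 CPM.

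Within the 111 cells, 23 Arg1-dominant cells were set against 58 Chil3-dominant cells. Of 4622 genes compared, 213 (4.61%) were at least 2-fold higher and 301 (6.51%) at least 2-fold lower in Arg1-dominant cells, and with TMM scaling 152 were higher and 400 lower. The groups had medians of 11137 and 8861 UMIs. Chemokine ligands were at least 2-fold higher in 8 of 15 and lower in 1 (median log2 ratio 1.12, from 0.33 after thinning to 1000 UMIs to 1.69 with the groups split at shares of 0.9 and 0.1). Cxcl2 was at 4626 CPM in Arg1-dominant cells, against 1164 CPM in Chil3-dominant cells, and was seen in 60.9% and 31.0% of them. Its log2 ratio of 1.99 was 1.61 without the cell that held most of it. Spp1 was at 2478 against 272 CPM (3.19, or 2.72 without the leading cell) and Cxcl3 at 1047 against 30.0 CPM (5.13, or 3.67), with 65.2% of its UMIs in 1 cell. The shares of cells with Spp1 lay closer together, at 39.1% of Arg1-dominant and 29.3% of Chil3-dominant cells. Ccl9 (1.48) and Ccl7 (1.12) came to 0.94 and 0.40 without the leading cell, and Ctla2a, a protease inhibitor, had 94.7% of its UMIs in 1 cell. On the Chil3 side, Cxcl10, an interferon-induced chemokine, was at 178 CPM in Arg1-dominant cells, against 1773 CPM in Chil3-dominant cells (-3.32, or -2.68 without the leading cell), and Saa3 at 157 against 1126 CPM (-2.84, or -2.49). Saa3 was seen in 34.8% of Arg1-dominant and 43.1% of Chil3-dominant cells. Cxcl10 was however seen in 39.1% of Arg1-dominant and 32.8% of Chil3-dominant cells. Single Chil3-dominant cells held 354, 270 and 157 of its 946 UMIs in that group. Of 16 monocyte genes, 0 were higher in Arg1-dominant cells and 3 lower (median log2 ratio -0.58): Plac8 was at 1018 against 2468 CPM and Ly6c2 at 794 against 1436 CPM. Apoe was at 3000 against 6324 CPM. The microglia list ran the other way: of 9 genes, 2 were higher in Arg1-dominant cells and 0 lower. Its median log2 ratio was 0.83, and from -0.33 to 0.84 under the alternatives. C1q, limited by the rule, had medians of 14.4 and 10.9 UMIs per 10000 in Arg1-dominant and Chil3-dominant cells. The part of microglial RNA in the differences named here was not tested. Adhesion and migration genes were higher in 0 of 19 and lower in 5. These are differences between small sets of cells of 1 library.

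The level of MHC class II varied widely among the Arg1 or Chil3 cells, from 0 to 516 UMIs per 10000. Ordered by that level, the cells were divided into 4 ranges of 28, 28, 28 and 27 cells with medians of 0, 3.48, 18.5 and 185 UMIs per 10000. Chil3 was lower in each higher range, at 5571, 3568, 1693 and 1151 CPM, while Arg1 was at 1636, 1825, 1464 and 949 CPM. The chemokine ligands summed to 13724, 16823 and 14893 CPM in the first 3 ranges and to 4703 CPM in the highest, with Ccl2 at 4203, 3918, 3945 and 688 CPM and Ccl7 at 1628, 1736, 1300 and 160 CPM. Saa3 was at 1520, 916, 955 and 62.0 CPM. Ccl2, Ccl7 and Saa3 thus stood lowest in the highest range, and other chemokines took other courses, such as Cxcl10 at 1264, 2079, 275 and 440 CPM and Ccl5 at 50.4, 81.3, 168 and 183 CPM. The Cxcl10 values rest on few cells. Of its 1116 UMIs, 1 cell of the first range held 270, and single cells of the second range held 354 and 157. Monocyte genes did not follow one course, with Ccr2 at 1113, 870, 845 and 714 CPM and Ly6c2 at 919, 1075, 1140 and 1190 CPM. The dendritic cell list summed to 34.9, 53.0, 28.7 and 320 CPM, and all 42 UMIs of Ccr7, the receptor of migrating dendritic cells, lay in the highest range, in 2 cells. The part of such cells in the lower chemokine level of that range was not tested.

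**Figure D5:**
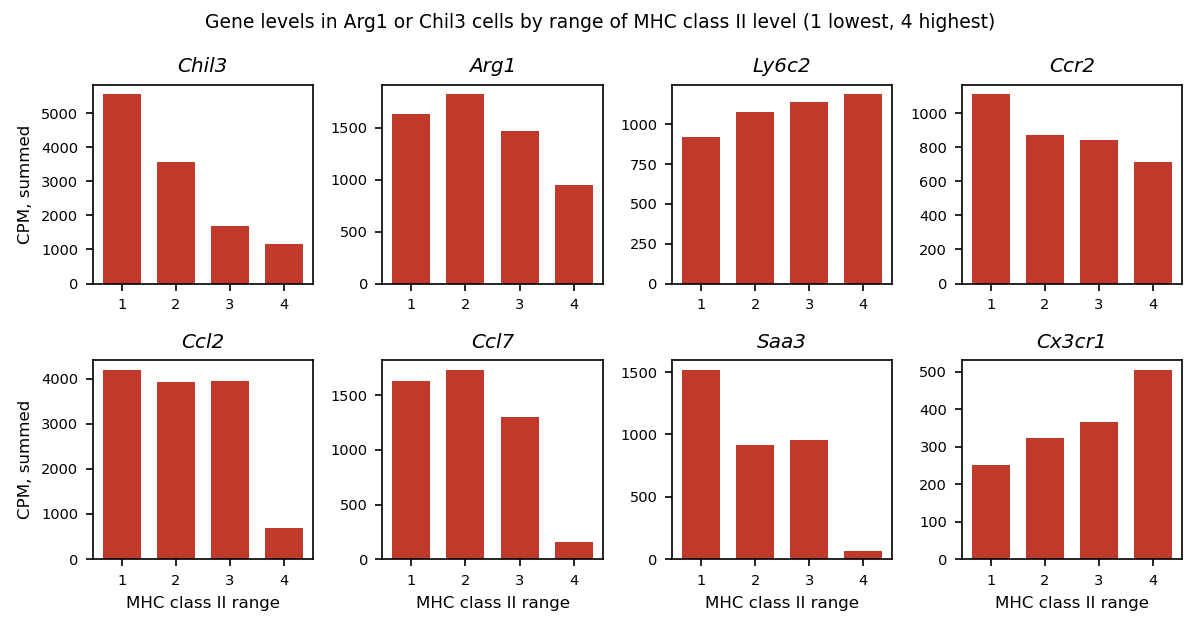
Each panel shows the summed level in CPM of 1 gene in the 111 cells divided into 4 ranges of MHC class II level, from lowest (1) to highest (4), with 28, 28, 28 and 27 cells. Chil3 is at 5571 CPM in range 1 and 1151 CPM in range 4, and Ccl2 is between 3918 and 4203 CPM in ranges 1 to 3 and at 688 CPM in range 4.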

How the data were processed

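Libraries followed the 10x Genomics 3′ v3 protocol, per the labels' protocols. The deposited UMI counts per gene and barcode are whole numbers without normalisation. Cell Ranger 6.1.2 and mm10 are named in the submitters' processing notes. Whether doublets were taken out earlier is not given in the sources used here. Of 32285 gene IDs, 32158 (99.6%) matched GENCODE M21 (GRCm38).

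Summed UMIs of each group were scaled to CPM, with exact Poisson intervals. For ratios the intervals are conditional binomial, and for shares Clopper-Pearson, all at 95%. Genes with fewer than 20 UMIs in both groups together were left out of comparisons, and a count of 0 was set to a floor of 3 UMIs. A gene was called higher or lower past 2-fold, with no test, since each library stands alone. Genes were named from the lists or as the 10 highest and 10 lowest ratios per comparison among genes with at least 50 UMIs in the higher group and a UMI in at least 10% of its cells, without genes used to choose cells. The members and the lists were chosen with earlier results of these data known. The Ccr2 versions without natural killer cells and low in MHC class II, the larger neutrophil group, the dendritic group and the values without the leading cell were added after the values had been seen. Scrublet in scanpy 1.11.5 used an expected rate of 6.93%. Ratios and intervals were tested on simulated Poisson counts. Those counts have no spread between cells, so the test checks the calculation and not how the intervals fare with such spread. Python 3.11.15, numpy 2.4.6, scipy 1.17.1 and pandas 2.3.3 were used. Alternatives covered the UMI, mitochondrial, Arg1 and Chil3, C1q and S100 limits of the rule, the scaling, the minimum of UMIs, the weighting of cells and the depth.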

Additional observations from a re-analysis of the deposited data

Results flagged for a closer look

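Cells that met the same rule were also found where leukocytes should have been removed. In the CD45-negative library, 8 of 12881 barcodes past the UMI and mitochondrial limits met it, where the floor for a count of 0 is 3 barcodes. That floor is no expected background, so whether 8 is an excess was not tested. These 8 barcodes had a median of 8107.5 UMIs and held 73 UMIs of Arg1 and 107 of Chil3. Ptprc (the gene of CD45) was seen in 7 of them and Ccr2 in 5. The oligodendrocyte list had 1127 UMIs in these 8 barcodes. Among CD45-positive barcodes under 1000 UMIs, 2 met the rest of the rule.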

How the results depend on the processing

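Under the alternatives run on the UMI, mitochondrial, Arg1 and Chil3, C1q and S100 limits and on doublets, the group held 81 to 131 cells. The Cd3 and Lyz2 limits were not varied and the C1q limit was only lowered, although it alone keeps out 130 barcodes. Together with the numbers of genes past 2-fold, 113 of 138 recomputed counts stayed within 1.5 times, and the others moved with depth, weighting, scaling or the minimum of UMIs.
Against the Ccr2 cells (506 higher and 694 lower), thinning to 1000 UMIs gave 226 higher and 183 lower, a minimum of 1 UMI 1073 and 1683, a minimum of 100 UMIs 213 and 121, and the mean over cells 1126 lower. Against microglia (1363 and 3254), thinning gave 1773 lower, median-of-ratios scaling 2049 lower, a minimum of 1 UMI 2143 higher and of 100 UMIs 888 higher. Against the 8 neutrophils (835 and 718), the mean over cells gave 1467 higher, thinning 235 and 104, a minimum of 1 UMI 1781 lower and of 100 UMIs 504 and 102. For Arg1-dominant over Chil3-dominant cells (213 and 301), the mean over cells gave 342 and 455, thinning 34 and 70, a minimum of 1 UMI 1663 and 840 and of 100 UMIs 14 and 21. Thinning and the higher minimum leave fewer genes to compare, and the cause of the other moves was not tested. Among 1373 values of named genes 1196 stayed, 174 moved and 3 turned: Hopx, lower in Arg1-dominant cells, had a log2 ratio of 1.01 after thinning, and Gzma, lower than in the Ccr2 cells, had 1.29 without natural killer cells and 1.46 in the version low in MHC class II. Gzma itself was used to leave Ccr2 cells out of both versions, so this turn follows from the choice of cells. For a ratio with an interval, a value stayed if it lay inside that interval, which is wide at few UMIs. The minimum of UMIs does not enter the ratio of a single gene, so values under its alternatives stayed by design. Removing doublets likewise changed nothing in the neutrophil and Arg1-dominant comparisons, whose cells held 0 doublet calls. The number that stayed is therefore partly fixed in advance. Of 1784 values of list medians 127 moved by 0.5 or more on the log2 scale. Of 114 list medians 42 changed sign under at least 1 alternative; among the 35 past 2-fold this was so of 1, alternative activation over neutrophils, at -0.62 with a minimum of 1 UMI. TMM scaling subtracted a factor from all log2 ratios. The factor was -0.10 against the Ccr2 cells and -0.28 against microglia, so these ratios rose.
No paired analysis was possible because each group of cells comes from 1 library, and for the same reason no library could be left out. Below 2.75 CPM a gene at 0 UMIs in the 111 cells was not detectable at this depth. The 8 neutrophils, and the 34 shallow Ccr2 cells of the version low in MHC class II, limit those comparisons.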
